A study of Homo sapiens with 24 samples.

Results

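The proteasome gene set comprised 45 of the 60564 rows of the deposited expression table. It held every gene with a symbol of the form PSM, a letter from A to G and a number, without the immunoproteasome subunits PSMB8, PSMB9 and PSMB10 and without pseudogenes. These were 8 genes of the core alpha ring, 8 of the core beta ring, 9 of the base, 8 of the lid, 4 activators, 7 assembly chaperones and the inhibitor PSMF1. A level of 1 FPKM (fragments counted per kilobase of transcript and scaled to the mapped fragments of the library) in at least 3 libraries was reached by 43 members, and these were tested.

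The proteasome is the cell's main protease for ubiquitin-tagged proteins. Its barrel-shaped core has outer rings of alpha subunits, which gate the entrance, and inner rings of beta subunits, which carry the proteolytic sites. A regulatory particle caps the barrel: its base holds ATPases that unfold the substrate, and its lid removes the ubiquitin chain. Alternative caps (activators) can bind the barrel instead, and dedicated chaperones build rings and base. Cells that lose proteasome capacity are known to raise the genes of the whole complex through the transcription factor NFE2L1, and NFE2L2, the oxidative stress regulator, can raise many of them too.

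RNA sequencing had been done in the neuroblastoma lines SK-N-BE(2), known for MYCN amplification, and SH-SY5Y, a subclone of SK-N-SH without it. Each line carried stable lentiviral constructs in 4 groups of 3 libraries: a short hairpin RNA against NDUFS6, a subunit of mitochondrial complex I (knockdown), the empty vector for it (knockdown control), the full-length NDUFS6 coding sequence (overexpression), and the empty vector for that (overexpression control). All groups had been infected for 16 h with 5 µg/mL polybrene and selected with 2 µg/mL puromycin from 48 h after infection. No untransduced cells were analysed here, and the labels do not say whether a line was 1 clone or a pool, or how many hairpins were used. According to the labels the 3 libraries are biological replicates, but separate transductions are not named, and p-values therefore cover only the spread seen among them.

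All 24 libraries shared 1 batch label and were built with a strand-specific kit. In SK-N-BE(2), NDUFS6 itself was at 1.09, 1.61 and 1.299 FPKM after knockdown against 9.29, 12.2 and 11.9 in controls, and at 3.11, 3.98 and 4.98 against 11.2, 11.1 and 12.1 in SH-SY5Y. The overexpression libraries were at 14.9, 17.8 and 19.0 against 11.8, 13.9 and 12.7 FPKM in SK-N-BE(2), a 1.34-fold rise, and at 214, 211 and 199 against 10.2, 11.5 and 11.2 in SH-SY5Y. Library totals ranged from 249708 to 276091 FPKM, and 12607 to 14018 genes per library reached 1 FPKM. Read totals are not given, but the smallest steps between values of single-exon genes put the shallowest library at 0.747 of the depth of the deepest. Of 9 neuroblastoma markers, TH was at most 0.278 FPKM in SH-SY5Y and listed at 0 in its 3 knockdown libraries. The 3 endothelial markers summed to at most 0.229 FPKM. Fewer cells of a type and less RNA per cell cannot be told apart in these bulk samples.

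Proteasome genes were expressed well above the typical gene. The median member stood at 19.7 FPKM over all libraries, against 4.25 for all tested genes, and 41 of the 43 tested members lay above that second value. Since FPKM is scaled to transcript length, members can be set side by side on this scale. Reads that may be shared with other genes are not corrected by it. This concerns PSMA1, PSMA2, PSMA6 and PSMD9, which share exon bases with overlapping genes, and PSMC1, which has a pseudogene of similar FPKM. The highest were PSMB4, a beta ring subunit, at 79.6 FPKM, PSMA7, an alpha ring subunit, at 74.1, and the ubiquitin receptor PSMD4 at 63.0. At the low end were the inhibitor PSMF1 at 4.46, the base chaperone PSMD9 at 2.64 and the core chaperone PSMG4 at 1.20 FPKM. PSMG4 reached 1 FPKM in 16 of 24 libraries. Genes whose products sit in the same ring therefore differed widely in RNA level: the tested alpha subunits spanned 10.4 FPKM (PSMA5) to 74.1 (PSMA7), and the beta subunits 20.8 (PSMB2) to 79.6 (PSMB4). The tissue-restricted subunits were near 0. PSMA8, the alpha subunit of the testis form, was listed at 0 in 20 libraries and never exceeded 0.0669 FPKM, and PSMB11, the catalytic subunit of the thymus form, was listed at 0 in 20 libraries with a highest value of 0.0611.

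Promoter sequence was available for 39 of the 45 members, at 47 transcription starts. The 250 bases before each start, from the RefSeq table of build GRCh38.p14, were searched on both strands for 3 motifs: TGACNNNGC, the core of the antioxidant response element that NFE2L1 and NFE2L2 bind with small MAF partners; CCAAT, the CCAAT box; and TGATGNAA, the ATF4 element. TGACNNNGC occurred before 12 of the 47 starts (25.5%), against 10.9% of 35116 promoters of the same length in the table. The shares for CCAAT were 38.3% (18 starts) and 32.0%. TGATGNAA matched none of the 47, against 3.14% of all promoters. Matches of different motifs did not overlap in these windows. A match is only a run of letters, and binding was not measured.

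Windows of 6 genes are printed because their genes lead the results that follow: PSMC2, PSMD5 and PSMD12 rose in both knockdowns, PSMD10 and PSMB3 fell in both, and PSMA5 had the largest member change on the log2(FPKM + 1) scale. Of those called in both knockdowns, only PSMC2 and PSMD10 also held against the other empty vector of each line. Capitals mark the motif matches (GRCh38.p14, 5′ to 3′ on the gene's strand, ending at the base before the start).
PSMC2 is read from chr7:103347393-103347642, plus strand, and its window holds 1 CCAAT.
PSMC2: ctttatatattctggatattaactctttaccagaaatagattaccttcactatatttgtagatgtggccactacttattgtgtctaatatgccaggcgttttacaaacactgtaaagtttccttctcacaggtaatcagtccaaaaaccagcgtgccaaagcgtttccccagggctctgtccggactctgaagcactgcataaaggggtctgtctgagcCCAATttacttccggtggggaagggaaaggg
The PSMD5 window lies at chr9:120842923-120843172, minus strand, with 1 match to TGACNNNGC.
PSMD5: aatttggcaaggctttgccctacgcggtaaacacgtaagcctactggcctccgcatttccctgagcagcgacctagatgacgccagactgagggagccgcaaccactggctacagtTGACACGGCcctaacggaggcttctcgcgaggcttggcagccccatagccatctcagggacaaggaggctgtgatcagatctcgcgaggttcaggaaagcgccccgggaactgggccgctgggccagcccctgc
For PSMD12 the window is chr17:67366578-67366827, minus strand, also with 1 match to TGACNNNGC.
PSMD12: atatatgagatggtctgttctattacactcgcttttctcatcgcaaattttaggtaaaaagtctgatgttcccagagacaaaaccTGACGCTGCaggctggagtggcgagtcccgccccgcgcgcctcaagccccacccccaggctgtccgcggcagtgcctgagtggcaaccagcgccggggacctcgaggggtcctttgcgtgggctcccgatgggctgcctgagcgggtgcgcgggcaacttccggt
PSMD10 has its window at chrX:108091543-108091792, minus strand, where CCAAT lies on the reverse strand so reads ATTGG.
PSMD10: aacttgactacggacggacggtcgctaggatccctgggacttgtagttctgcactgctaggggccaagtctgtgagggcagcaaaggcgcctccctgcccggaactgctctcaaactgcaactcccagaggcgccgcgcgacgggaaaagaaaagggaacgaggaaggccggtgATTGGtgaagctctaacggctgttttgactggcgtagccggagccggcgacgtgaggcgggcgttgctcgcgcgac
PSMB3, at chr17:38752491-38752740, plus strand, holds 1 match to TGACNNNGC and CCAAT at 2 places.
PSMB3: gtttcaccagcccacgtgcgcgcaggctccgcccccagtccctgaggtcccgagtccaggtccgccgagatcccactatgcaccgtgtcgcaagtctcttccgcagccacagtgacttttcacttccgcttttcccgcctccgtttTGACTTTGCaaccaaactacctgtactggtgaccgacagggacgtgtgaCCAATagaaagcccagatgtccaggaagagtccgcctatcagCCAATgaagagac
PSMA5, at chr1:109426449-109426698, minus strand, holds CCAAT at 2 places.
PSMA5: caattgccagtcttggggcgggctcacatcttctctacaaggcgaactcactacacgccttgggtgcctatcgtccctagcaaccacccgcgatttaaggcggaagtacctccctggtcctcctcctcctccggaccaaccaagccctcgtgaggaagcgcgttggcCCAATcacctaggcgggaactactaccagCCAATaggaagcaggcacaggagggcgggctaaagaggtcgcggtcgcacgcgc
Of the 8 members that passed the test in the same direction in both knockdowns, 5 carried TGACNNNGC. These included genes that rose (PSMD5, PSMD9, PSMD12) and genes that fell (PSMB3, PSMD3). CCAAT also occurred in 5 of the 8. Among all 39 members with a promoter sequence, 12 carried TGACNNNGC and 18 carried CCAAT.

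Constructs were tested against their own vector with limma on log2(FPKM + 1). It fits a linear model to each gene and draws on all genes to estimate the spread. P-values were adjusted over all 15903 tested genes, and a gene was called at an adjusted p under 0.05. On this scale changes of low genes are understated. Counts under another scaling, filter or control are given without the share of all tested genes. They show only how far the calls depended on the setting. No proteasome gene changed by 2-fold on that scale in any of the 4 comparisons. Over these comparisons 9 members were never called, 16 were called in 1, 13 in 2, 4 in 3 (PSMC2, PSMD1, PSMD11 and PSMD12), and PSME3 in all 4. These counts were not computed over all tested genes. Calls in both knockdowns were made for 25.6% of members and 34.7% of all tested genes. For both overexpressions the shares were 6.98% and 11%.

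**Figure D1:**
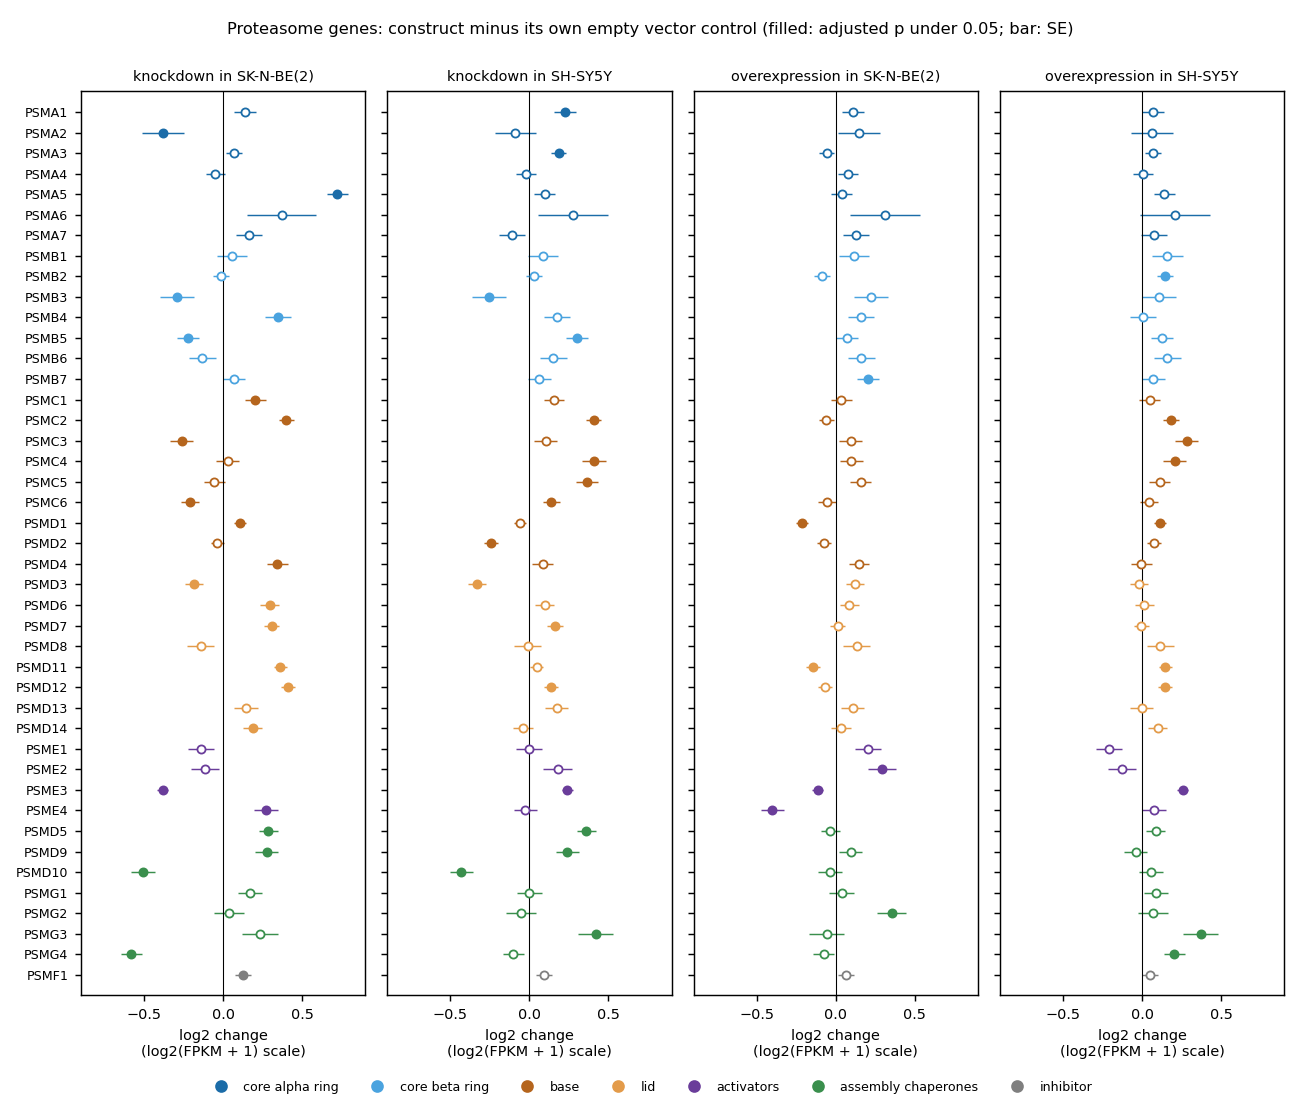
Log2 change of each of the 43 tested proteasome genes (rows, coloured by role) between a construct and its own empty vector control, with the standard error as a bar; filled points passed an adjusted p of 0.05. In the knockdowns points lie on both sides of 0, from -0.58 (PSMG4) to 0.72 (PSMA5) in SK-N-BE(2), and the filled points of overexpression in SH-SY5Y are all to the right.

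Knockdown of NDUFS6 in SK-N-BE(2) moved proteasome genes in both directions. Of the 43 tested members, 15 rose and 9 fell. The called share was 55.8%, near the 55.7% of all tested genes (27.4% higher and 28.3% lower). The median change was 0.07 over members and -0.01 over all genes. Regulatory particle genes made up more of the rises (9 of 17 base and lid genes rose, 3 fell) than core genes (2 of 14 rose, 3 fell). Scaling each library to a fixed sum (TPM) gave 22 rising and 4 falling, and PSMA2, PSMB3, PSMB5, PSMC6 and PSMD3 were then not called. With only the 6 compared libraries in the fit, PSMA2, PSMD1 and PSMF1 were not called.

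In the alpha ring, PSMA5 was at 15.1, 16.0 and 13.4 FPKM after knockdown and 8.65, 8.55 and 8.496 in controls. All knockdown values were above all control values, a 1.73-fold rise (log2 change 0.72, SE 0.0675, limma adjusted p = 1.80e-08). The overexpression controls of the same line were at 12.3, 14.0 and 12.5 FPKM, overlapping the knockdown range, and against them the log2 change was 0.18 (limma adjusted p = 0.0347). PSMA2, another alpha subunit, was at 16.4, 18.0 and 9.71 FPKM against 18.4, 18.3 and 19.8. Knockdown library 3 was far below the rest of both groups (log2 change -0.38, SE 0.131, limma adjusted p = 0.0187). The call ended without knockdown library 3 (0.148) or control 3 (0.0617), limma adjusted p in parentheses, and the log2 change was -0.13 without that knockdown library and -0.35 without that control. PSMA2 shares 14.6% of its exon bases with an overlapping gene on the same strand (AC010132.3), which counting may split. PSMA6 stood at 10.7, 13.4 and 10.97 against 7.79, 9.34 and 9.27 FPKM, with no overlap between the groups, and was not called (limma adjusted p = 0.166). It shares 14.1% of its exon bases with AL121594.1. The remaining alpha subunits, PSMA1, PSMA3, PSMA4 and PSMA7, had log2 changes between -0.05 and 0.16 and were not called.

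In the beta ring, the non-catalytic PSMB4 was at 76.9, 83.5 and 73.7 FPKM after knockdown and at 61.1, 59.6 and 62.1 in controls (log2 change 0.35, SE 0.0820, limma adjusted p = 0.00116). No other beta subunit was called higher. PSMB5, which carries the chymotrypsin-like site, was at 42.0, 47.9 and 42.0 against 54.2, 52.4 and 48.0 FPKM, with a narrow gap between the groups (log2 change -0.23, SE 0.0696, limma adjusted p = 0.00955), and the call ended without control 1 (0.0505). PSMB3, a non-catalytic subunit, fell from 56.3, 55.7 and 57.2 to 40.5, 53.4 and 44.5 FPKM (log2 change -0.29, SE 0.106, limma adjusted p = 0.0244). That call ended without any of knockdown library 1 (0.141), knockdown library 3 (0.0673), control 1 (0.0517) or control 3 (0.0604), where the values in parentheses are limma adjusted p. The other catalytic subunits were not called: PSMB6, of the caspase-like site, had a log2 change of -0.13, and PSMB7, of the trypsin-like site, one of 0.07.

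The base ATPases split. PSMC2 was at 27.9, 28.5 and 26.4 FPKM after knockdown and 21.1, 20.7 and 20.2 in controls, with no overlap (log2 change 0.40, SE 0.0485, limma adjusted p = 6.82e-07). PSMC1 also rose, by 0.20 (limma adjusted p = 0.0127), and lost its call without knockdown library 2 (0.0618). Its reads may be shared with the near-identical pseudogene PSMC1P1, which had a similar FPKM. PSMC3 went the other way, from 50.2, 48.8 and 48.4 to 39.8, 43.1 and 39.7 FPKM (log2 change -0.26, SE 0.0720, limma adjusted p = 0.00423), and so did PSMC6, from 13.8, 13.6 and 13.0 to 11.8, 11.8 and 10.9 (log2 change -0.21, SE 0.0561, limma adjusted p = 0.00336). In both the groups were apart. PSMC4 and PSMC5 had log2 changes of 0.03 and -0.06 and were not called. Among the non-ATPase base genes, the ubiquitin receptor PSMD4 was at 65.2, 73.8 and 63.6 against 55.1, 51.4 and 52.3 FPKM (log2 change 0.34, SE 0.0660, limma adjusted p = 0.000170), and the scaffold PSMD1 rose by 0.10 (limma adjusted p = 0.0257), a call that ended without knockdown library 3 (0.0723) or control 2 (0.1).

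Among the rings, base and lid, the lid had the largest share of rising genes, 5 of 8 with 1 falling. PSMD12, a lid scaffold subunit, was at 21.6, 22.5 and 22.1 FPKM against 15.4, 16.0 and 17.8 (log2 change 0.41, SE 0.0443, limma adjusted p = 1.38e-07). PSMD11, which clamps lid to core, was at 9.08, 8.59 and 8.51 against 6.92, 6.30 and 6.50 FPKM (log2 change 0.36, SE 0.0427, limma adjusted p = 4.84e-07). PSMD6, PSMD7 and the deubiquitinase PSMD14 rose by 0.30, 0.31 and 0.19 (limma adjusted p from 2.07e-05 to 0.0144). PSMD3, a further scaffold subunit, was the exception, with 21.6, 22.4 and 20.3 FPKM against 24.4, 23.7 and 25.4 (log2 change -0.19, SE 0.0571, limma adjusted p = 0.00923). Each of the 6 called lid genes had groups that did not overlap, a trait whose share over all tested genes was not computed. The calls of PSMD14 and PSMD3 ended without knockdown library 1 (0.0603) and knockdown library 3 (0.0526) respectively, limma adjusted p in parentheses.

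The alternative caps moved apart too. PSME3, the nuclear activator, stood at 19.0, 20.0 and 19.0 FPKM against 25.7, 24.9 and 25.98 (log2 change -0.38, SE 0.0346, limma adjusted p = 1.14e-08). PSME4, an activator of large single-chain form, stood at 18.7, 15.2 and 16.9 against 13.9, 13.6 and 14.0 FPKM (log2 change 0.27, SE 0.0739, limma adjusted p = 0.00401). Neither activator's groups overlapped. The overexpression controls, at 18.3, 16.5 and 19.2 FPKM, overlapped the PSME4 range of the knockdown, and the log2 change against them was -0.09. The interferon-inducible pair PSME1 and PSME2 was not called (-0.14 and -0.12).

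Chaperones showed the largest falls. PSMG4, a partner in alpha ring assembly, was at 0.811, 0.878 and 0.881 FPKM against 1.79, 1.76 and 1.77, which is 0.483 of the control mean although the log2 change on the offset scale was -0.58 (SE 0.0662, limma adjusted p = 3.01e-07). PSMD10, also known as gankyrin, a base chaperone, fell from 11.4, 10.9 and 10.8 to 7.61, 7.78 and 7.10 FPKM (log2 change -0.51, SE 0.0749, limma adjusted p = 8.95e-06). For both chaperones all knockdown libraries lay below all controls. The remaining base chaperones rose: PSMD5 by 0.29 (limma adjusted p = 0.000480) and PSMD9, which shares 14.9% of its exon bases with AC069503.2, by 0.28 (limma adjusted p = 0.00297). The core chaperones PSMG1, PSMG2 and PSMG3 were not called. The inhibitor PSMF1 was at 3.27, 3.24 and 3.07 against 2.74, 2.77 and 3.01 FPKM (log2 change 0.13, SE 0.0507, limma adjusted p = 0.0390), and the call ended without knockdown library 1 (0.107), knockdown library 2 (0.0938), control 1 (0.124) or control 2 (0.109).

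With the overexpression controls as reference, 13 of the 24 calls held: PSMA5, PSMC2, PSMD6, PSMD11, PSMD12 and PSMD14 higher, and PSMA2, PSMB5, PSMC3, PSMC6, PSMD10, PSME3 and PSMG4 lower. PSMD9 (-0.01) and PSME4 changed sign, and PSMB3, PSMB4, PSMC1, PSMD1, PSMD3, PSMD4, PSMD5, PSMD7 and PSMF1 stood between -0.12 and 0.13, none of them called. Neuroblastoma markers moved with this comparison: their summed level was 580.3 ± 67.3 FPKM after knockdown (SD, n = 3) and 806 ± 11.8 in controls, with 7 of 9 lower and 2 higher. The 5 fibroblast markers summed to 125 to 147 FPKM after knockdown and 103 to 109 in controls, with COL1A2 below 1 FPKM, but they did not move together: COL3A1 (mean 49.2 against 16.4) and COL1A1 (11.5 against 5.26) rose, DCN (7.09 against 9.89) fell, and LUM (67.1 against 75.4) was not called. Mitochondrially encoded genes held 27.5% to 28.3% of the summed FPKM after knockdown and 33.6% to 34.1% in controls. The part of these in the proteasome values was not tested.

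In SH-SY5Y, most of the proteasome genes called after knockdown rose. Of the 43 members, 13 rose and 4 fell, 39.5% against 56% of all tested genes (26.3% higher, 29.6% lower). The median change was 0.10 over members and -0.01 over all genes. Base ATPases and chaperones led the rises, and PSMD10 again had the largest fall. TPM scaling gave 8 rising and 6 falling, with PSMA1, PSMA3, PSMC6, PSMD7 and PSMD12 not called. With the overexpression controls as reference 6 rose and 10 fell, a count given without the share of all tested genes. The empty vector controls of this line differed in 36.2% of all tested genes.

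Among core genes 3 of 14 rose and 1 fell. PSMA3, an alpha subunit, was at 19.3, 19.5 and 21.2 FPKM after knockdown and 17.3, 17.7 and 17.5 in controls (log2 change 0.18, SE 0.0496, limma adjusted p = 0.00341). PSMA1, of the same ring, was at 24.6, 25.5 and 30.5 FPKM against 22.9, 23.6 and 21.9 (log2 change 0.22, SE 0.0695, limma adjusted p = 0.00976). For both genes all 3 knockdown libraries lay above the controls. PSMA1 shares 24.7% of its exon bases with the same-strand gene AC018523.2, and its call ended without knockdown library 3 (0.0926), where the log2 change was 0.13. The catalytic PSMB5 was at 48.1, 48.7 and 52.6 against 41.4, 39.8 and 39.5 FPKM (log2 change 0.30, SE 0.0696, limma adjusted p = 0.00102), the opposite direction to the other line. Against the overexpression controls its change was 0.09 and not called. PSMB3 fell from 47.1, 45.8 and 42.8 to 37.2, 35.6 and 40.4 FPKM (log2 change -0.26, SE 0.106, limma adjusted p = 0.0474), and the call ended without knockdown library 1 (0.1001), knockdown library 2 (0.146), control 1 (0.128) or control 2 (0.102).

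Of 9 base genes 4 rose, all of them ATPases. PSMC2 was at 26.8, 26.8 and 28.95 FPKM against 20.8, 20.3 and 20.3 (log2 change 0.41, SE 0.0485, limma adjusted p = 4.87e-07), close to the 0.40 in SK-N-BE(2). PSMC4 was at 35.8, 36.5 and 41.7 against 29.2, 28.8 and 27.1 (log2 change 0.41, SE 0.0737, limma adjusted p = 8.32e-05), and PSMC5 at 35.3, 35.7 and 37.8 against 27.6, 29.02 and 27.3 (log2 change 0.36, SE 0.0675, limma adjusted p = 0.000109). In these 3 genes the groups did not overlap. The overexpression controls were at 34.9, 36.7 and 37.4 FPKM for PSMC4, where the knockdown range overlapped them. Against those controls the changes of PSMC4 and PSMC5 were 0.06 and 0.08, not called, while PSMC2 kept 0.25 (limma adjusted p = 0.000198). PSMC6 rose by 0.14 (limma adjusted p = 0.0419), a call that ended without knockdown library 3 (0.295), control 1 (0.0503), control 2 (0.0949) or control 3 (0.105), and that was not made with only the 6 compared libraries in the fit. The scaffold PSMD2 fell from 39.3, 41.4 and 40.9 to 33.6, 33.0 and 35.7 FPKM (log2 change -0.24, SE 0.0440, limma adjusted p = 8.35e-05).

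In the lid 2 of 8 genes rose and 1 fell. PSMD7 was at 35.4, 36.5 and 34.7 FPKM against 31.3, 31.9 and 31.7 (log2 change 0.16, SE 0.0487, limma adjusted p = 0.00758), and PSMD12 rose by 0.14 (limma adjusted p = 0.0132). Set against the overexpression controls, both were slightly lower, at -0.06 and -0.09, and not called. PSMD12 also lost its call without knockdown library 3 (0.0786) or control 1 (0.0550). PSMD3 fell from 20.0, 20.4 and 20.9 to 15.3, 15.4 and 17.4 FPKM (log2 change -0.33, SE 0.0571, limma adjusted p = 4.57e-05), and it was lower against both controls.

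Among the activators PSME3 alone was called, at 23.6, 22.9 and 24.3 FPKM against 19.5, 19.6 and 20.5 (log2 change 0.24, SE 0.0346, limma adjusted p = 6.08e-06). The overexpression controls were still higher, at 26.3, 26.5 and 26.2 FPKM, and against them PSME3 was lower (log2 change -0.15, limma adjusted p = 0.0008). The sign of the PSME3 change in this knockdown thus depended on the control.

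Of 7 chaperones 3 rose. PSMG3, a core chaperone, was at 9.98, 12.6 and 11.5 against 8.97, 7.80 and 7.90 FPKM (log2 change 0.42, SE 0.112, limma adjusted p = 0.00332). PSMD5, which holds ATPases before base assembly, was at 9.38, 9.34 and 8.89 against 7.54, 6.68 and 6.65 (log2 change 0.36, SE 0.0611, limma adjusted p = 4.05e-05). PSMD9 rose by 0.24 (limma adjusted p = 0.00849), and not without control 1 (0.0594). PSMD10 fell from 12.9, 13.1 and 12.3 to 8.97, 8.38 and 10.4 FPKM (log2 change -0.43, SE 0.0749, limma adjusted p = 5.49e-05). The knockdown libraries of PSMD10 were below all 6 control libraries of the line.

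With the overexpression controls as reference, 8 of the 17 calls held: PSMA1, PSMA3, PSMC2 and PSMD5 higher, and PSMB3, PSMD2, PSMD3 and PSMD10 lower. PSMC6, PSMD9 and PSMG3 were at 0.12, 0.12 and 0.17 there, not called. Markers of other cells moved with this comparison. All 4 tested fibroblast markers rose, and the 5 summed to 217 ± 6.03 FPKM after knockdown and 87.3 ± 1.71 in controls, with COL1A2 below 1 FPKM, and CD68 accounted for most of an immune sum of 10.4 ± 1.41 against 2.32 ± 0.385, with PTPRC, CD3E and CD14 below 1. CD68 shares 81.7% of its exon bases with AC016876.2. Neuroblastoma markers summed to 616 ± 12.6 and 838 ± 4.52 FPKM. Mitochondrially encoded genes held 36.3% to 38.1% of the summed FPKM after knockdown and 30.8% to 31.4% in controls, so this share was higher here and lower in the SK-N-BE(2) knockdown. The part of these in the proteasome values was not tested.

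**Figure D2:**
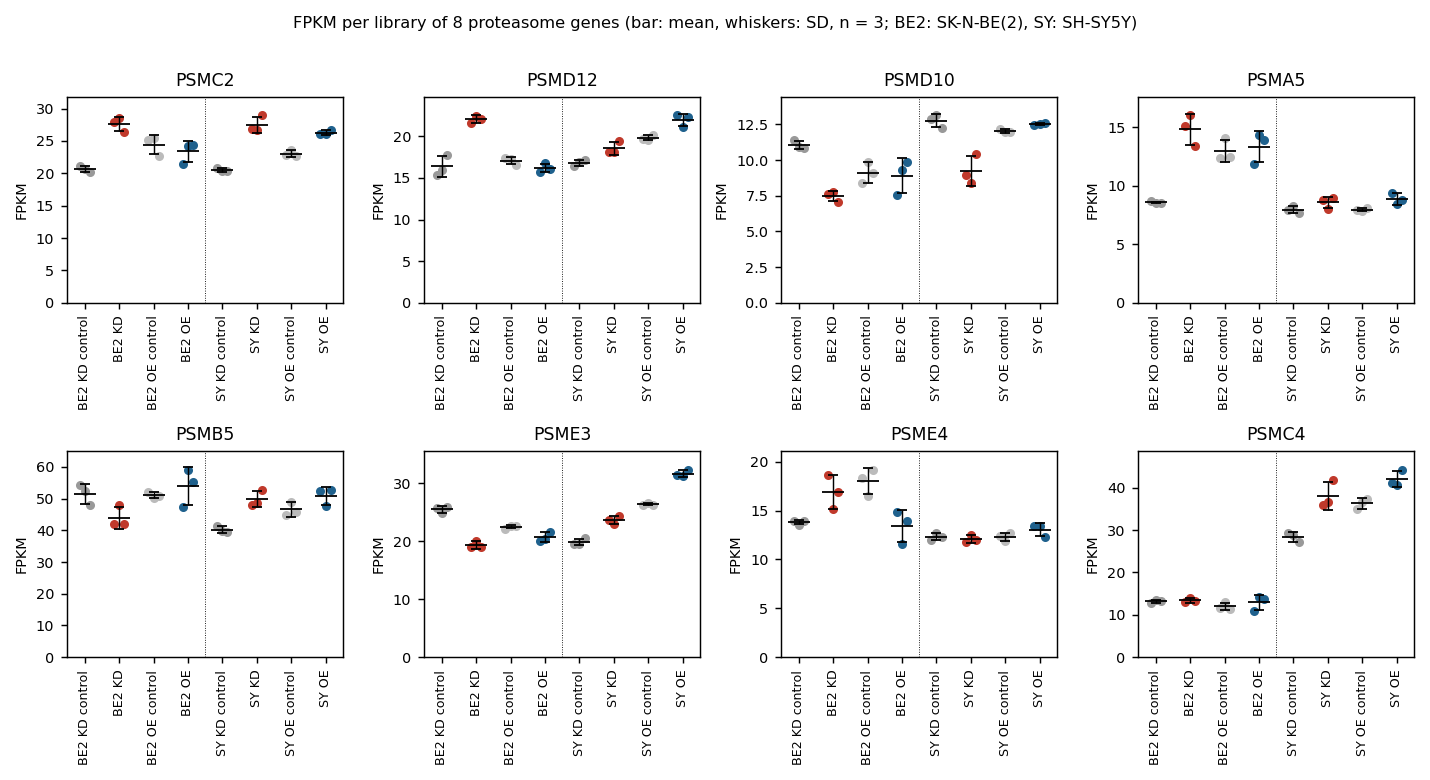
FPKM of 8 proteasome genes in every library (points) of the 8 groups, with the group mean and SD (n = 3). PSMC2 was higher and PSMD10 lower after knockdown than in both control groups of each line, PSMA5 differed between the control groups of SK-N-BE(2), and PSMC4 was lower in every SK-N-BE(2) library than in every SH-SY5Y library.

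The knockdowns of the 2 lines share no libraries, so their calls can be set side by side. In both, 8 members were called in the same direction: PSMC2, PSMD5, PSMD7, PSMD9 and PSMD12 rose, and PSMB3, PSMD3 and PSMD10 fell. The opposite calls were 3: PSMB5, PSMC6 and PSME3. Same-direction calls were thus 18.6% of members, against 20.5% of all tested genes, and opposite calls 6.98% against 14.1%. Of the 8, PSMC2 and PSMD10 also held against the other control in each line. For PSMC2 the log2 changes against the other control were 0.17 and 0.25, and for PSMD10 -0.25 and -0.35.

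The knockdown response differed between lines for 15 members, 34.9% against 55.8% of all tested genes (29.5% higher, 26.3% lower). Given as the SK-N-BE(2) log2 change minus that of SH-SY5Y, PSMA5 stood highest at 0.63 (SE 0.0955, limma adjusted p = 1.28e-05) and PSME3 lowest at -0.62 (SE 0.0490, limma adjusted p = 1.48e-09). Both values rest on the knockdown controls, and the difference was not computed with the overexpression controls. PSMA5 in SK-N-BE(2) and PSME3 in SH-SY5Y each differed between the empty vectors of their line. Of the 6 base ATPases 4 were lower in SK-N-BE(2) relative to SH-SY5Y: PSMC3 (-0.36), PSMC4 (-0.38), PSMC5 (-0.42) and PSMC6 (-0.35), with limma adjusted p from 0.000881 to 0.00484. The scaffolds and receptor of the base went the other way: PSMD1 (0.17), PSMD2 (0.21) and PSMD4 (0.26). Lid genes PSMD11, PSMD12 and PSMD14 were also higher, by 0.32, 0.28 and 0.23. The PSMD4 call ended without SK-N-BE(2) knockdown library 2 (0.0731), SK-N-BE(2) control 2 (0.0527) or SH-SY5Y knockdown library 2 (0.0555), and that of PSME4 (0.30) without SK-N-BE(2) knockdown library 1 (0.0715). That of PSMD14 ended with no filter on low values, and without SK-N-BE(2) knockdown library 1 (0.0780), SK-N-BE(2) knockdown library 2 (0.0505), SK-N-BE(2) control 1 (0.0681), SK-N-BE(2) control 3 (0.0538), SH-SY5Y knockdown library 2 (0.120), SH-SY5Y control 1 (0.0521) or SH-SY5Y control 3 (0.0780), limma adjusted p in parentheses. PSMC2 did not differ detectably, with a difference of -0.01 (SE 0.0686, limma adjusted p = 0.952). TPM scaling moved the median of all genes in this contrast to 0.16 from 0.01 and gave 19 higher and 4 lower members in place of 8 and 7. Under TPM scaling, with all genes shifted upward, the calls of PSMC3, PSMC4 and PSMC6 were lost. Under scaling by median of ratios all 15 calls held.

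Overexpression of NDUFS6 in SK-N-BE(2), where NDUFS6 rose little, changed few proteasome genes. Of 43 members 3 rose and 4 fell, 16.3% against 29.7% of all tested genes (12.9% higher, 16.8% lower). Scaling by median of ratios gave 7 and 2, and TPM 2 and 8. The median change was 0.08 over members and -0.01 over all genes. Among structural subunits, PSMB7, which carries the trypsin-like site, was at 67.6, 83.9 and 70.0 FPKM against 63.2, 66.2 and 61.9 (log2 change 0.20, SE 0.0716, limma adjusted p = 0.0387). PSMD1 fell from 28.99, 28.6 and 26.5 to 23.0, 24.5 and 24.5 (log2 change -0.21, SE 0.0382, limma adjusted p = 0.000437), and PSMD11 from 7.82, 7.30 and 7.87 to 6.51, 7.10 and 6.91 FPKM (log2 change -0.14, SE 0.0427, limma adjusted p = 0.0158). These groups did not overlap, but PSMD11 turned to 0.05 against the knockdown controls. The PSMB7 call ended without overexpression library 2 (0.268), control 1 (0.0952) or control 3 (0.123), and that of PSMD11 without overexpression library 1 (0.0554), control 1 (0.0621) or control 3 (0.0718).

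Of the 4 activators, 3 were called in that comparison. PSME4 fell from 18.3, 16.5 and 19.2 to 14.8, 11.6 and 13.9 FPKM (log2 change -0.40, SE 0.0739, limma adjusted p = 0.000577), and PSME3 from 22.2, 22.6 and 22.7 to 20.0, 20.4 and 21.6 (log2 change -0.12, SE 0.0346, limma adjusted p = 0.0166). PSME2 was at 8.65, 11.1 and 9.75 against 7.92, 8.65 and 6.96 FPKM, with ranges that met (log2 change 0.29, SE 0.0901, limma adjusted p = 0.0202). The chaperone PSMG2 was at 7.77, 10.3 and 9.02 against 6.37, 7.35 and 6.77 (log2 change 0.35, SE 0.0936, limma adjusted p = 0.00837). Single libraries ended 3 of these calls: PSME3 without overexpression library 1 (0.0525), overexpression library 2 (0.0616) or control 3 (0.0605), PSME2 without overexpression library 2 (0.136), overexpression library 3 (0.0504) or control 3 (0.119), and PSMG2 without overexpression library 2 (0.0669). Without the first overexpression library 15 members rose and 2 fell, without the second none rose, and without control 3, 1 rose. With only the 6 compared libraries in the fit, no member was called. With the knockdown controls as reference 18 rose and 4 fell, and PSME2 and PSME4 were not called (0.00 and -0.04). The fibroblast markers summed to 158 to 180.1 FPKM with overexpression and 139 to 146 in controls: LUM (mean 143 against 112) and DCN (15.7 against 12.5) rose, COL3A1 (5.25 against 10.6) fell, and COL1A1 (5.68 against 5.83) was not called. The mitochondrially encoded share of FPKM was 26.3% to 28.4% with overexpression and 28.1% to 28.99% in controls. The part of these in the proteasome values was not tested.

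Overexpression in SH-SY5Y, where NDUFS6 RNA rose strongly, gave 10 rising members and none falling, 23.3% against 32.6% of all tested genes (15.4% higher, 17.2% lower). The changes were small, up to 0.37, and the median was 0.07 over members and -0.01 over all genes. At an unadjusted p under 0.05 limma had 1 member lower, PSME1 (-0.21, adjusted p = 0.0561). Scaling by median of ratios gave 7 rising and 1 falling. The regulatory particle held 6 of the 10. PSMC3 was at 50.1, 48.4 and 55.8 FPKM against 40.6, 41.5 and 44.2 (log2 change 0.28, SE 0.0720, limma adjusted p = 0.00503), PSMC4 at 41.2, 40.7 and 44.3 against 34.9, 36.7 and 37.4 (log2 change 0.20, SE 0.0737, limma adjusted p = 0.0384) and PSMC2 at 26.03, 26.02 and 26.7 against 22.8, 23.6 and 22.6 (log2 change 0.18, SE 0.0485, limma adjusted p = 0.00671). In these ATPases every overexpression library was above every control library, yet the PSMC4 call ended without overexpression library 1 (0.0621), overexpression library 2 (0.05001), overexpression library 3 (0.143), control 1 (0.132), control 2 (0.0710) or control 3 (0.0517), limma adjusted p in parentheses.

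The lid gene PSMD11 stood at 15.9, 14.99 and 15.9 FPKM against 13.9, 13.7 and 14.5 (log2 change 0.15, SE 0.0427, limma adjusted p = 0.0124). PSMD12, also of the lid, stood at 22.5, 21.2 and 22.3 FPKM against 19.7, 19.6 and 20.2 (log2 change 0.14, SE 0.0443, limma adjusted p = 0.0180). The scaffold PSMD1 of the base completes the regulatory particle genes called here. PSMB2, a beta subunit, was at 21.8, 21.8 and 22.0 against 18.5, 20.4 and 20.2 (log2 change 0.14, SE 0.0510, limma adjusted p = 0.0383). PSME3 was at 31.4, 31.3 and 32.3 against 26.3, 26.5 and 26.2 FPKM (log2 change 0.26, SE 0.0346, limma adjusted p = 1.11e-05). The core chaperone PSMG3 was at 12.8, 13.0 and 13.7 FPKM against 9.18, 9.97 and 10.8 (log2 change 0.37, SE 0.112, limma adjusted p = 0.0152). Its partner PSMG4 was at 1.20, 1.24 and 1.33 FPKM against 0.983, 1.05 and 0.848 (log2 change 0.20, SE 0.0662, limma adjusted p = 0.0238). All 10 also rose against the knockdown controls of the line, where 22 members rose and 1 fell. That comparison used the same overexpression libraries and is not a second test. The knockdown controls were themselves lower than the overexpression controls in 11 members and higher in 1. Single libraries carried several of these calls, which ended, with limma adjusted p in parentheses, for PSMD11 without overexpression library 3 (0.0507) or control 2 (0.0551), for PSMD12 without overexpression library 1 (0.0719), overexpression library 3 (0.0580), control 1 (0.0542) or control 2 (0.0567), for PSMB2 without overexpression library 1 (0.0760), overexpression library 2 (0.0776), overexpression library 3 (0.0900) or control 1 (0.204), for PSMG3 without overexpression library 3 (0.0527) or control 1 (0.0716), and for PSMG4 without overexpression library 3 (0.0847) or control 3 (0.112). PSMD1 (log2 change 0.12, SE 0.0382, limma adjusted p = 0.0253) lost its call without overexpression library 1 (0.0635), overexpression library 3 (0.1003), control 2 (0.0624) or control 3 (0.0694). PSMB2, PSMC4 and PSMD1 were not called under scaling by median of ratios, nor PSMG4 with only the 6 compared libraries in the fit. Leaving out overexpression library 3, 3 members rose and 1 fell. Leaving out overexpression library 1, or control 1 or 2, left 6. The fibroblast markers summed to 20.9 to 23.4 FPKM with overexpression and 16.6 to 18.2 in controls: COL3A1 (mean 17.3 against 11.8) rose, COL1A1 (2.18 against 2.59) fell, and LUM (2.20 against 2.41) and DCN (0.0710 against 0.0968) were not called. The mitochondrially encoded share of FPKM was 27.5% to 29.2% with overexpression and 29.9% to 30.6% in controls. The part of these in the proteasome values was not tested.

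The overexpressions also share no libraries between the lines. Called in both were 3 members, each in opposite directions: PSMD1, PSMD11 and PSME3 fell in SK-N-BE(2) and rose in SH-SY5Y. Opposite calls were 6.98% of members and 7.72% of all tested genes. The overexpression response differed between lines for 11 members, 25.6% against 36.8% of all tested genes (18.3% higher, 18.5% lower). It was computed with the overexpression controls only, not with the knockdown controls. PSME1 (0.41) and PSME2 (0.42) were higher in SK-N-BE(2) relative to SH-SY5Y. The other 9 were lower, led by PSME4 (-0.48), PSMG3 (-0.43), PSME3 (-0.37) and PSMD1 (-0.33), with limma adjusted p from 9.35e-06 to 0.0405. The PSMG3 call ended under scaling by median of ratios, with no filter on low values, and without SK-N-BE(2) overexpression library 1 (0.104), SK-N-BE(2) overexpression library 3 (0.0561), SK-N-BE(2) control 2 (0.0990), SH-SY5Y overexpression library 1 (0.0544), SH-SY5Y overexpression library 2 (0.0597), SH-SY5Y overexpression library 3 (0.0766), SH-SY5Y control 1 (0.0966) or SH-SY5Y control 2 (0.0647). The PSMG4 call ended without SK-N-BE(2) control 1 (0.0654), SH-SY5Y overexpression library 3 (0.0542) or SH-SY5Y control 3 (0.0674), and that of PSMB2 without SH-SY5Y control 1 (0.0574) and under median of ratios, limma adjusted p in parentheses.

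Within a line, knockdown and overexpression were each set against their own control and share no libraries. In SK-N-BE(2) PSMD1, PSMD11 and PSME4 rose with knockdown and fell with overexpression, and PSME3 fell with both. Opposite calls were 6.98% of members against 9.33% of all tested genes there, and same-direction calls 2.33% against 9.7%. The opposite calls depended on the control. With the line's other vector as reference, PSMD11 kept only its knockdown call, PSMD1 only its overexpression call, and PSME4 neither. PSME3 kept both. In SH-SY5Y 5 members rose with both constructs: PSMC2, PSMC4, PSMD12, PSME3 and PSMG3. No member of SH-SY5Y was called in opposite directions, against 6.62% of all tested genes, and same-direction calls were 11.6% against 16.4%. With the line's other vector as reference, all 5 kept their overexpression rise, but only PSMC2 kept its knockdown rise. PSMD12 and PSME3 changed sign in the knockdown there, and PSMC4 and PSMG3 were not called.

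The empty vector controls differed from each other in each line. Given as knockdown control minus overexpression control, 4 members were higher and 14 lower in SK-N-BE(2), 41.9% against 34.5% of all tested genes (15.5% higher, 19% lower), with PSMA5 the furthest at -0.54 (SE 0.0675, limma adjusted p = 2.96e-06). Among called members PSME4 (-0.36) and PSMD4 (-0.31) followed. The summed level of the 45 members was 982 ± 3.27 FPKM in the knockdown controls and 1052 ± 42.3 in the overexpression controls (SD, n = 3). TPM scaling gave 25 lower and none higher. In SH-SY5Y 1 member was higher and 11 lower, 27.9% against 36.2% of all tested genes (18.4% higher, 17.8% lower), led by PSME3 at -0.39 (SE 0.0346, limma adjusted p = 2.84e-08) and PSME1 at 0.38. The sums there were 997 ± 4.47 and 1081 ± 15.3 FPKM. The vector difference in PSMA5 (-0.54) thus compares with a knockdown change of 0.72, and that in PSME3 of SH-SY5Y (-0.39) with one of 0.24.

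**Figure D3:**
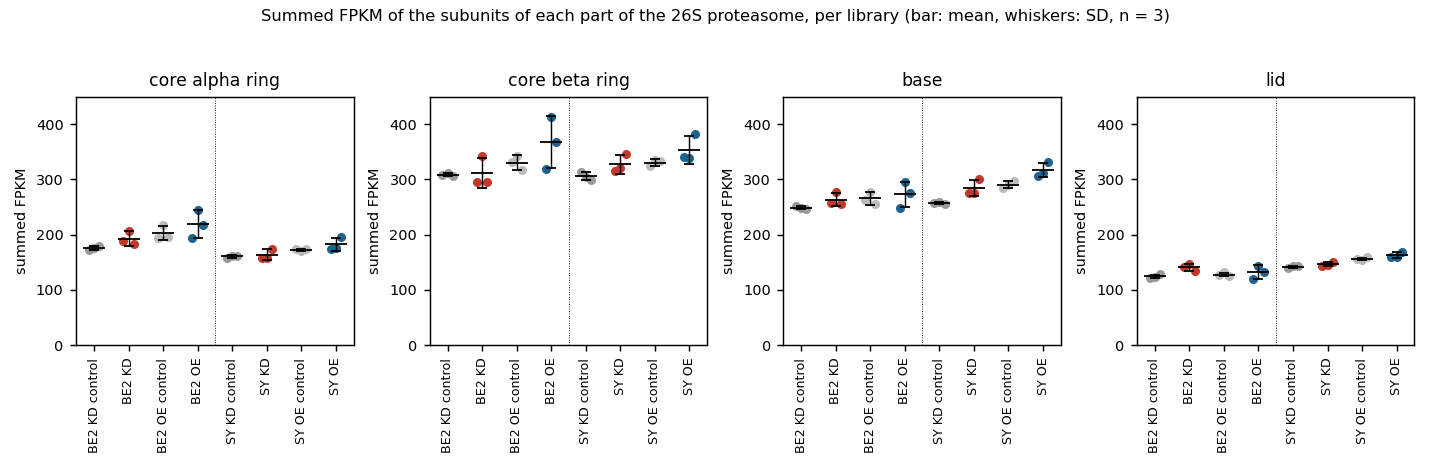
Summed FPKM of the alpha ring, beta ring, base and lid genes in each library, with group means and SD (n = 3). In each line the knockdown controls have the lowest mean in all 4 classes, and the SK-N-BE(2) overexpression libraries spread widest, from 319 to 414 FPKM for the beta ring.

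Summed by structure, the lid stood at 141 ± 5.86 FPKM after knockdown in SK-N-BE(2) and 125 ± 2.98 in its controls, without overlap. The base in SH-SY5Y stood at 284 ± 14.5 FPKM after knockdown, 258 ± 2.18 in its controls, 317 ± 13.3 with overexpression and 291 ± 6.13 in those controls. The beta ring was at 367 ± 47.4 FPKM in the SK-N-BE(2) overexpression libraries, a spread that covered its controls at 331 ± 12.9. Sums are dominated by the highest genes and carry no test.

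The lines themselves differed in most of the set. In the controls, 19 members were higher and 16 lower in SK-N-BE(2) than in SH-SY5Y, 81.4% against 77.3% of all tested genes (33.5% higher, 43.8% lower). The ATPase PSMC4 ranged from 11.3 to 13.5 FPKM with a median of 12.9 in the 6 control libraries of SK-N-BE(2) and from 27.1 to 37.4 FPKM with a median of 32.0 in those of SH-SY5Y (log2 difference -1.29, SE 0.0521, limma adjusted p = 6.23e-15). The lid gene PSMD8 ranged from 10.96 to 14.3 FPKM with a median of 12.7 in SK-N-BE(2) and from 23.7 to 28.0 FPKM with a median of 26.4 in SH-SY5Y (log2 difference -0.99, SE 0.0608, limma adjusted p = 5.94e-12). PSMD11 ranged from 6.30 to 7.87 FPKM with a median of 7.11 in SK-N-BE(2) and from 13.2 to 14.5 FPKM with a median of 13.7 in SH-SY5Y (log2 difference -0.87, SE 0.0302, limma adjusted p = 5.40e-16). No control library of one line reached the range of the other in these 3 genes.

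Higher in SK-N-BE(2) was PSMG1, a chaperone of alpha ring assembly, which ranged from 14.9 to 19.1 FPKM with a median of 16.3, while in SH-SY5Y it ranged from 7.63 to 9.43 FPKM with a median of 8.94 (log2 difference 0.87, SE 0.0541, limma adjusted p = 7.97e-12). The inhibitor PSMF1 was lower there, from 2.74 to 3.18 FPKM with a median of 2.89, while in SH-SY5Y it ranged from 4.85 to 6.63 FPKM with a median of 5.68 (log2 difference -0.76, SE 0.0359, limma adjusted p = 8.39e-14). The ATPases of the base did not move together: besides PSMC4, PSMC5 was lower (-0.62), PSMC1, PSMC3 and PSMC6 were higher (0.19, 0.34 and 0.51), and PSMC2 was not called (0.05). Of the alpha ring 4 of 7 tested genes were higher in SK-N-BE(2) and none lower, and of the lid 2 of 8 were higher and 5 lower. Of these calls, PSMD6 (0.10) was lost under TPM scaling and with no filter on low values, and without SK-N-BE(2) knockdown control 2 (0.0599), SK-N-BE(2) overexpression control 2 (0.0880), SH-SY5Y knockdown control 1 (0.0729), SH-SY5Y overexpression control 2 (0.0810) or SH-SY5Y overexpression control 3 (0.0554). PSMA4 (0.12) was lost without SK-N-BE(2) overexpression control 2 (0.0655), and PSMD14 (-0.12) without SK-N-BE(2) overexpression control 1 (0.0723), limma adjusted p in parentheses.

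**Figure D4:**
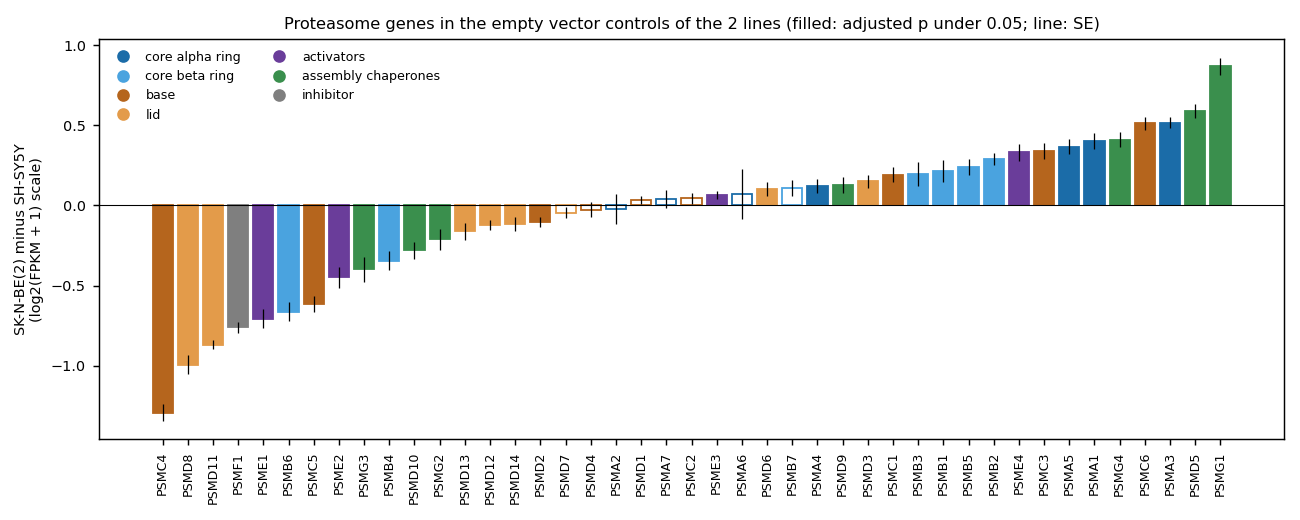
Difference of each tested proteasome gene between the empty vector controls of SK-N-BE(2) and SH-SY5Y on the log2(FPKM + 1) scale, sorted, with the standard error as a line and filled bars for an adjusted p under 0.05. The set runs from -1.29 for PSMC4 to 0.87 for PSMG1, and PSMC4 and PSMC6 of the base lie on opposite sides (-1.29 and 0.51).

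In the SK-N-BE(2) knockdown other genes of the pathway reached larger log2 changes (2.21 for MAFF) than the subunits did (0.72 for PSMA5). Of 12 proteasome-bound or assembly genes with other names 7 rose and 3 fell, of 12 ubiquitin, activation and shuttle genes 5 rose and 6 fell, and of 7 genes of transcriptional control 5 rose, where 55.7% of all tested genes were called (27.4% higher and 28.3% lower). ADRM1, a ubiquitin receptor of the base, stood at 23.4, 21.7 and 22.3 FPKM after knockdown and 12.8, 13.5 and 13.9 in controls (log2 change 0.70, SE 0.0573, limma adjusted p = 2.52e-09). ZFAND2A, a stress-induced proteasome partner, was at 5.24, 5.44 and 5.26 against 1.498, 0.671 and 1.23 FPKM (log2 change 1.58, SE 0.132, limma adjusted p = 3.23e-09). POMP, the chaperone of core maturation, fell from 21.8, 23.1 and 23.6 to 17.7, 20.2 and 17.0 FPKM (log2 change -0.31, SE 0.0941, limma adjusted p = 0.00903), and was at -0.05 against the overexpression controls. SEM1, a small lid protein, fell too (log2 change -0.33, limma adjusted p = 0.00363). The segregase VCP, which extracts ubiquitinated proteins, was at 86.3, 77.7 and 75.7 against 42.8, 44.2 and 46.5 (log2 change 0.83, SE 0.0476, limma adjusted p = 1.20e-11), and the shuttle RAD23B at 59.8, 61.9 and 59.0 against 50.1, 48.7 and 49.5 (log2 change 0.28, SE 0.0340, limma adjusted p = 7.22e-07). In these genes the groups did not overlap.

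NFE2L1 itself was not called there, at 41.6, 38.1 and 37.5 FPKM against 36.4, 38.9 and 36.5 (log2 change 0.06, SE 0.0422, limma adjusted p = 0.210). Its relative NFE2L2 was at 39.2, 38.8 and 37.5 against 17.3, 17.6 and 17.0 (log2 change 1.11, SE 0.0448, limma adjusted p = 5.85e-14), and shares 17.6% of its exon bases with another same-strand gene. The small MAF partner MAFF was at 6.97, 6.51 and 5.99 against 0.495, 0.725 and 0.648 FPKM (log2 change 2.21, SE 0.0860, limma adjusted p = 3.67e-14). NGLY1, which processes NFE2L1, rose by 0.54 (limma adjusted p = 7.59e-08). Of the immunoproteasome genes, PSMB8 was at 0.481, 0.562 and 0.803 FPKM against 0.0287, 0.0411 and 0.0581 (log2 change 0.63, SE 0.0709, limma adjusted p = 2.68e-07), below 1 FPKM in all of them, and PSMB9 did not reach 1 FPKM in any library. PSMB10 was at 0.704, 1.20 and 1.13 against 2.71, 1.59 and 1.25 (log2 change -0.48, SE 0.187, limma adjusted p = 0.0351), a call that ended without knockdown library 1 (0.153) or control 1 (0.236).

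In the SH-SY5Y knockdown the same lists gave 4 rises and 5 falls, 2 and 4, and 3 and 1, where 56% of all tested genes were called (26.3% higher, 29.6% lower). NFE2L1 was at 60.4, 61.5 and 64.7 FPKM after knockdown and 41.8, 40.9 and 39.7 in controls (log2 change 0.59, SE 0.0422, limma adjusted p = 2.25e-10), and NGLY1 fell from 4.12, 4.35 and 4.13 to 1.94, 2.13 and 2.10 FPKM (log2 change -0.77, SE 0.0559, limma adjusted p = 3.42e-10). ADRM1 was at 23.95, 23.5 and 28.6 against 18.9, 18.9 and 18.8 (log2 change 0.40, SE 0.0573, limma adjusted p = 4.76e-06). POMP was at 48.2, 45.3 and 56.4 against 44.0, 40.7 and 42.7 FPKM, with a limma adjusted p of 0.0497 (log2 change 0.22) that ended without knockdown library 1 (0.0626), knockdown library 3 (0.267), control 1 (0.0599), control 2 (0.141) or control 3 (0.0867). UFD1, a partner of VCP, fell from 7.11, 6.65 and 6.64 to 4.60, 4.76 and 5.05 FPKM (log2 change -0.43, SE 0.0545, limma adjusted p = 1.19e-06). The proteasome-bound ubiquitin ligase UBE3C was at 17.0, 15.9 and 17.1 against 10.2, 10.6 and 10.3 (log2 change 0.63, SE 0.0514, limma adjusted p = 1.67e-09). NPLOC4, the cofactor that works with UFD1, was at 15.4, 16.3 and 16.5 FPKM against 12.7, 12.9 and 12.6 (log2 change 0.31, SE 0.0412, limma adjusted p = 1.74e-06). In both the groups did not overlap. ZFAND5, which binds ubiquitin and proteasome, rose by 0.39 (limma adjusted p = 2.15e-09). Both tested immunoproteasome genes rose: PSMB10 from 1.98, 0.687 and 1.27 to 4.01, 3.30 and 4.32 FPKM (log2 change 1.11, SE 0.187, limma adjusted p = 3.78e-05) and PSMB8 from 1.26, 1.21 and 1.17 to 2.22, 2.21 and 2.37 (log2 change 0.56, SE 0.0709, limma adjusted p = 1.03e-06). PSMB10 shares 34.8% of its exon bases with the same-strand gene AC040162.1.

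Overexpression in SK-N-BE(2) gave 1 rise and 1 fall among the particle genes, 3 and 5 among ubiquitin, activation and shuttle genes, and 1 and 3 in transcriptional control, where 29.7% of all tested genes were called (12.9% higher, 16.8% lower). UBE3C fell from 23.5, 21.6 and 23.7 to 19.2, 16.3 and 18.0 FPKM (log2 change -0.35, SE 0.0514, limma adjusted p = 7.55e-05). TXNL1, a thioredoxin-like proteasome partner, was at 4.35, 5.09 and 4.68 FPKM against 4.07, 3.98 and 4.23 (log2 change 0.16, SE 0.0502, limma adjusted p = 0.0201). RPS27A, which encodes ubiquitin joined to a ribosomal protein, was at 175, 250.3 and 213 FPKM against 172, 186 and 161 (log2 change 0.28, SE 0.0911, limma adjusted p = 0.0243). The groups overlapped for RPS27A, and for UBE3C and TXNL1 they did not. The TXNL1 call ended without overexpression library 2 (0.136), control 1 (0.0561) or control 2 (0.0614), and that of RPS27A without overexpression library 2 (0.187), overexpression library 3 (0.0676), control 1 (0.0631) or control 3 (0.113), limma adjusted p in parentheses. UBA6, a ubiquitin-activating enzyme, fell from 6.38, 5.90 and 6.64 to 5.50, 4.52 and 4.98 FPKM (log2 change -0.29, SE 0.0601, limma adjusted p = 0.00163). DDI2, the protease that cleaves NFE2L1, fell from 8.36, 6.70 and 8.39 to 6.55, 3.72 and 4.82 FPKM (log2 change -0.57, SE 0.118, limma adjusted p = 0.00150), and it shares 15.3% of its exon bases with RSC1A1. MAFF was at 1.06, 1.22 and 1.12 FPKM against 0.690, 0.652 and 0.676 (log2 change 0.35, SE 0.0860, limma adjusted p = 0.00503), low levels in both groups. For UBA6, DDI2 and MAFF the groups did not overlap. With the 6 compared libraries alone 10 of the calls in these lists were lost, among them RPS27A, TXNL1, UBA6 and DDI2, and 4 held. With the knockdown controls as reference 7 held, 6 were not called, among them RPS27A, UBE3C and DDI2, and UFD1 changed sign. NFE2L1 fell (log2 change -0.21, limma adjusted p = 0.00108), and ADRM1 (-0.15) and POMP (0.17) were not called. In SH-SY5Y the counts were 4 and 0, 5 and 1, and 1 and 1, where 32.6% of all tested genes were called (15.4% higher, 17.2% lower). UBQLN2, a shuttle, was at 13.8, 14.3 and 13.7 FPKM against 10.1, 11.1 and 10.5 (log2 change 0.37, SE 0.0412, limma adjusted p = 1.23e-06). Its relative UBQLN4 was at 35.7, 37.7 and 38.5 FPKM against 33.6, 33.2 and 33.5 (log2 change 0.15, SE 0.0370, limma adjusted p = 0.00308). ZFAND5 was at 17.1, 17.4 and 17.2 FPKM against 14.5, 14.8 and 14.6 (log2 change 0.22, SE 0.0322, limma adjusted p = 2.32e-05). The proteasome-bound deubiquitinase USP14 was at 22.1, 23.9 and 22.1 FPKM against 19.6, 19.4 and 20.1 (log2 change 0.20, SE 0.0466, limma adjusted p = 0.00279). In these 4 genes every overexpression library was above every control library. In transcriptional control, MAFF fell from 1.20, 1.44 and 1.71 to 0.800, 0.952 and 0.782 FPKM (log2 change -0.41, SE 0.0860, limma adjusted p = 0.00109). NFE2L2 was at 7.73, 7.34 and 8.31 FPKM against 6.83, 6.80 and 6.62 (log2 change 0.18, SE 0.0448, limma adjusted p = 0.00388), with a log2 change of -0.15 against the knockdown controls. NFE2L1 (0.08), ADRM1 (0.12) and POMP (0.18) were not called.

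**Figure D5:**
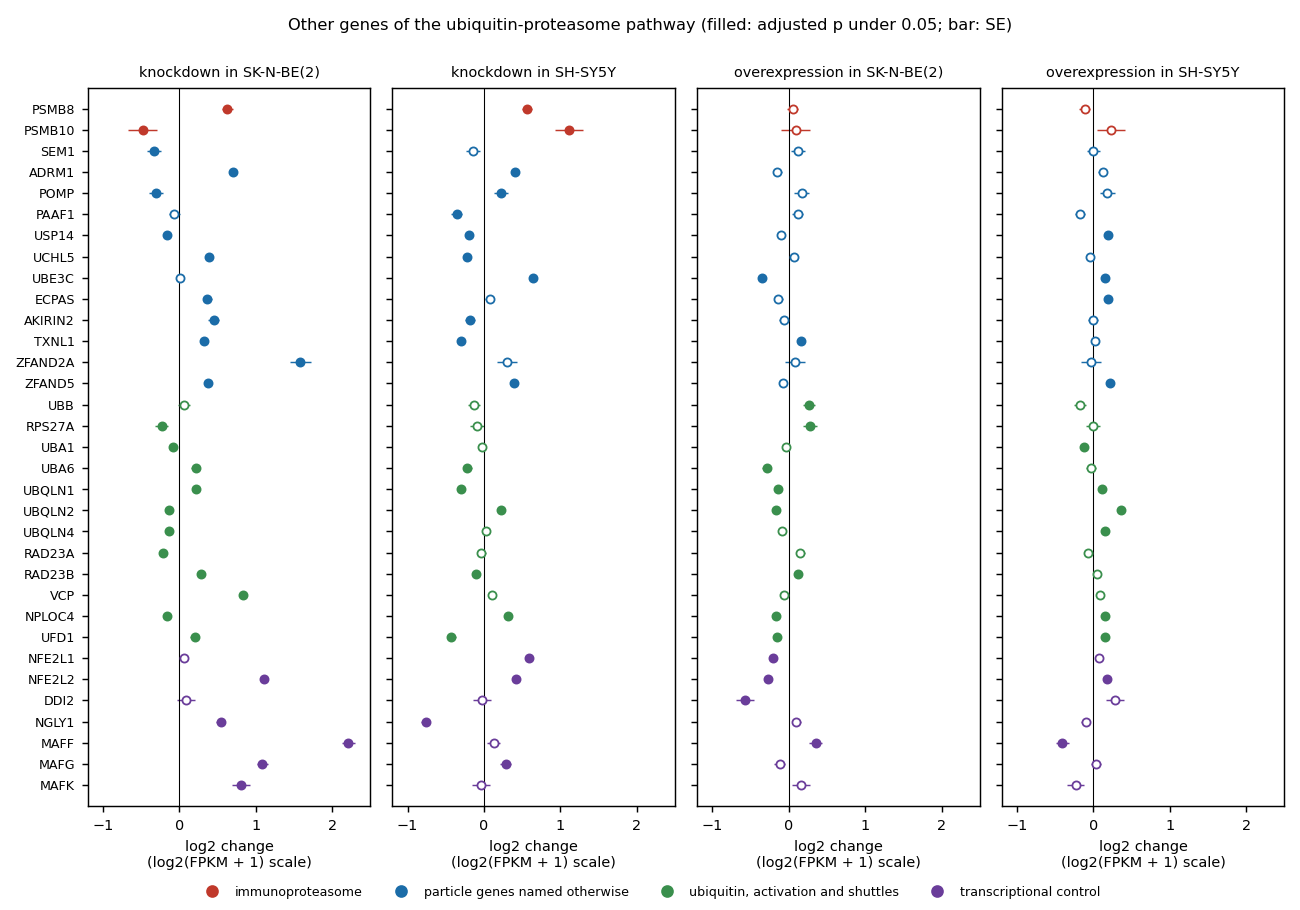
Log2 change of 33 other genes of the ubiquitin-proteasome pathway between each construct and its own empty vector control, with the standard error as a bar; filled points passed an adjusted p of 0.05. MAFF (2.21), ZFAND2A (1.58) and NFE2L2 (1.11) lie furthest right in the SK-N-BE(2) knockdown, and NFE2L1 is filled only in the SH-SY5Y knockdown (0.59) and in SK-N-BE(2) overexpression (-0.21).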

How the data were processed

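RNA from 24 libraries (8 groups of 3) had been sequenced. The FPKM values are as deposited by the authors. Per the submitters' processing notes, reads were checked with FastQC 0.11.2, and STAR, StringTie 1.3.1c and build hg38 were used. Log2 values were computed here as log2(FPKM + 1) from the deposited table. FPKM is not a count, so no count model was used, and no sample column was left unused (0).

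The 15903 genes that reached 1 FPKM in 3 or more libraries were fitted with limma 3.58.1 (trend, robust; R 4.3.3), all 8 groups in 1 fit with 16 residual degrees of freedom, two-sided, Benjamini-Hochberg adjustment over all tested genes. The procedure was tested on simulated data. Members and lists were chosen with earlier results of these data known. Library values are given for called members with the 5 largest absolute changes, up to 2 per class with the smallest adjusted p, and members against their class. Pathway genes are the 2 called genes with the largest changes per list, plus NFE2L1, POMP and ADRM1.

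Alternatives were a pseudocount of 0.1, no filter, a mean of at least 5 FPKM, median of ratios, TPM, limma without trend or robust moderation, only the compared groups, a replicate block, the opposite vector, and leaving out each library. Promoters are from RefSeq (GRCh38.p14). Shared exon bases are from GENCODE release 29. Protein sequences were not used here, and 2 genes of the ubiquitin list are not reported here.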

Additional observations from a re-analysis of the deposited data

Results flagged for a closer look

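The response to a construct differed between the lines for the members below, by limma's test of the difference itself, and values are the log2 change in SK-N-BE(2) minus that in SH-SY5Y. For knockdown 7 members were lower: PSME3 (-0.62), PSMB5 (-0.53), PSMG4 (-0.48), PSMC5 (-0.42), PSMC4 (-0.38), PSMC3 (-0.36) and PSMC6 (-0.35) (limma adjusted p from 1.47e-09 to 0.00484). Higher were PSMA5 (0.63), PSMD11 (0.32), PSME4 (0.30), PSMD12 (0.28), PSMD4 (0.26), PSMD14 (0.23), PSMD2 (0.21) and PSMD1 (0.17) (limma adjusted p from 1.28e-05 to 0.0338). Under TPM scaling PSMC3, PSMC4 and PSMC6 were not called. The calls of PSMD4, PSMD14 and PSME4 ended with single libraries left out (PSME4 without SK-N-BE(2) knockdown library 1, 0.23, limma adjusted p = 0.0715). For overexpression 9 members were lower: PSME4 (-0.48), PSMG3 (-0.43), PSME3 (-0.37), PSMD1 (-0.33), PSMD11 (-0.29), PSMG4 (-0.28), PSMC2 (-0.24), PSMB2 (-0.23) and PSMD12 (-0.21) (limma adjusted p from 9.35e-06 to 0.0405). Higher were PSME2 (0.42) and PSME1 (0.41) (limma adjusted p from 0.00877 to 0.0144). Under scaling by median of ratios PSMB2, PSMD12 and PSMG3 were not called. Those of PSMG3, PSMG4 and PSMB2 also ended with single libraries left out (PSMG4 with limma adjusted p from 0.0542 to 0.0674, PSMB2 with 0.0574). All these differences used each construct's own vector, and they were not computed with the line's opposite vector. NDUFS6 RNA differed between the lines after each construct, and its part in these differences was not tested.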

How the results depend on the processing

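Counts below are members called higher and lower, without the share of all tested genes. With the line's opposite vector as reference, 6 rose in the SK-N-BE(2) knockdown, 6 rose and 10 fell in the SH-SY5Y knockdown, 18 rose with overexpression in SK-N-BE(2), and 22 rose and 1 fell with it in SH-SY5Y. Signs turned there for PSMD9 (-0.011), PSME4 (-0.087) and UFD1 (-0.14) in the SK-N-BE(2) knockdown, PSMD12 (-0.090), PSMD7 (-0.058) and PSME3 (-0.15) in that of SH-SY5Y, PSMD11 (0.050) and UFD1 (0.18) in SK-N-BE(2) overexpression, and NFE2L2 (-0.15) in that of SH-SY5Y. TPM scaling left 4 lower in the SK-N-BE(2) knockdown, 8 higher in that of SH-SY5Y, 19 higher and 4 lower in their difference, 8 lower with overexpression in SK-N-BE(2), and 0 higher and 25 lower between its vectors, and turned UBA1 (0.015, SK-N-BE(2) knockdown) and UBQLN4 (0.041, knockdown difference). Median of ratios gave 7 higher and 2 lower for overexpression in SK-N-BE(2) and 1 lower in SH-SY5Y. Fitting the compared groups alone, there were 0 and 0 for overexpression in SK-N-BE(2), 1 lower in SH-SY5Y, and 19 lower between the SH-SY5Y vectors. A mean of at least 5 FPKM gave 1 lower for overexpression in SH-SY5Y. Replicate numbers did not pair the libraries (r from -0.076 to 0.37 over 12 same-number pairs, 2 of them over 0.1, and 2 libraries closest to their own number). With the replicate block 5 members rose in SK-N-BE(2) overexpression and 1 fell in that of SH-SY5Y, and PSMF1 was the member that lost its call (limma adjusted p = 0.0539, SK-N-BE(2) knockdown). Leaving out 1 library at a time gave 13 to 16 higher and 6 to 11 lower for knockdown in SK-N-BE(2), 10 to 13 and 3 to 5 in SH-SY5Y, 0 to 15 and 2 to 4 for overexpression in SK-N-BE(2), 3 to 8 and 0 to 1 in SH-SY5Y, 6 to 9 and 7 to 11 for the knockdown difference, 2 to 6 and 7 to 10 for the overexpression difference, and 2 to 4 and 10 to 15 between the SK-N-BE(2) vectors. A group then held 2 libraries. Adding the pseudogene PSMC1P1 to PSMC1, chosen after seeing the data, made PSMC1 a rise in the SH-SY5Y knockdown (0.17, limma adjusted p = 0.0289) and ended its call between the SH-SY5Y vectors (-0.13, limma adjusted p = 0.115). The depth of single values is unknown, so counting error could not be separated from replicate spread.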
